A study of Mus musculus with 7 samples.

Results

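The proteasome genes of splenic regulatory T cells (Tregs) from aged and young mice are described here. They were chosen by symbol, as protein-coding genes named Psm followed by a letter from a to g and a number, and they made up 50 of the 25469 genes with a read in at least 1 library. RNA-sequencing was performed on CD4+CD25+ splenocytes of wild-type (WT) mice, with 3 libraries from 18-month-old mice (aged Tregs) and 4 libraries from 8-week-old mice (young Tregs). The mice were male C57BL/6 animals, the labels give no surgery or drug for these animals, and each library was labelled as a biological replicate. CD25 is also carried by activated conventional T cells, so the isolated cells were defined by surface markers and not by Foxp3 itself.

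The proteasome degrades proteins that carry ubiquitin. Its core is a barrel of alpha and beta rings in which Psmb5, Psmb6 and Psmb7 cut peptide bonds, and it is capped by a regulatory particle of ATPases and non-ATPases that recognises, unfolds and feeds in the substrate. Interferon induces the alternative catalytic subunits Psmb8, Psmb9 and Psmb10, which replace Psmb5, Psmb6 and Psmb7 respectively to form the immunoproteasome, and it also induces the activator subunits Psme1 and Psme2. The immunoproteasome is abundant in lymphoid cells and is known for producing peptides that are loaded on MHC class I molecules.

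Each library held between 10734234 and 13649310 reads assigned to genes, with all 4 young libraries deeper than the 3 aged ones. Levels are given as CPM, read counts scaled to the TMM-adjusted library size. Ages were compared by the quasi-likelihood test of edgeR, and a gene was called at a Benjamini-Hochberg adjusted p under 0.05 over 13904 genes. All 6 Treg markers, Foxp3, Il2ra, Cd4, Ctla4, Ikzf2 and Tnfrsf18, were detected and none was called, with a summed level of 2393 to 3040 CPM in aged and 1970 to 3070 CPM in young Tregs. At an unadjusted edgeR p under 0.05 there were 5 of these 6 (83.3%), beside 32.7% of all genes tested, and they went both ways. Their log2 fold changes were 0.86 for Ctla4, 0.49 for Tnfrsf18 and 0.46 for Ikzf2, against -0.61 for Il2ra and -0.30 for Cd4. Markers of other cells were also present, and no listed marker was at 0 in all libraries. The neutrophil list had 2 of 7 genes higher in aged Tregs, S100a8 and S100a9, at a summed 603 to 4447 against 274 to 862 CPM. The macrophage list had 3 of 7 genes lower, at 368 to 530.4 against 488 to 569 CPM. The platelet list had 1 of 4 tested genes higher, the plasma cell list 1 of 5 higher, the dendritic cell list 1 of 6 higher and 2 lower, the NK list 1 of 4 lower and the T cell list 1 of 5 in each direction, while the 6 B cell, 2 CD8 and 6 erythroid markers had none called. The shares called were 50% for dendritic cell, 42.9% for macrophage, 40% for T cell and 28.6% for neutrophil genes. They were 25% for platelet, 25% for NK and 20% for plasma cell genes, beside 16.7% of all genes tested (9.8% higher and 6.94% lower). The ranges of the summed levels overlapped between the ages except for the platelet list (20.2 to 39.5 against 8.2 to 17.3 CPM) and the NK list (15.4 to 24.6 against 25.8 to 35.9 CPM). Mitochondrial transcripts took 5.08% to 10.7% of gene counts in aged and 2.63% to 3.23% in young libraries. The part of these differences in the results below was not tested, and in such bulk samples a change in the cells present and a change in RNA per cell cannot be told apart.

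Of the 50 genes, 48 passed the filter on low counts. The 2 that did not are subunits of other tissues. Psma8, the testis alpha subunit, reached at most 0.79 CPM, and Psmb11, the catalytic subunit of the thymus, had a single read in young library 4 and none in the other 6 libraries, which allows up to 0.21 to 0.302 CPM per library (3 reads, counting error only). Psmc3ip, a recombination factor, entered by its symbol but is not part of the proteasome. Its difference between the ages was 0.44 as log2 fold change, with a standard error (SE) of 0.28 (edgeR adjusted p = 0.322).

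Aged Tregs had more Psmb9 and less Psmb5 transcript, and these were the 2 of 48 proteasome genes (4.17%) that were called, beside 16.7% of all genes tested. The share called higher was 9.8% and the share called lower 6.94% over all genes. At an unadjusted p under 0.05 there were 8 of 48 members (16.7%) beside 32.7% of all genes. The median log2 fold change of the members was -0.01 beside 0.02 for all genes, and the median size of a change, whatever its direction, was 0.11 beside 0.27. In 37 of 48 members (77.1%) the difference between the ages was within 0.25 on the log2 scale, against 47.3% of all genes, and 23 differences were positive and 25 negative. The members were also measured with smaller errors, with a median standard error of 0.11 against 0.17.

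**Figure D1:**
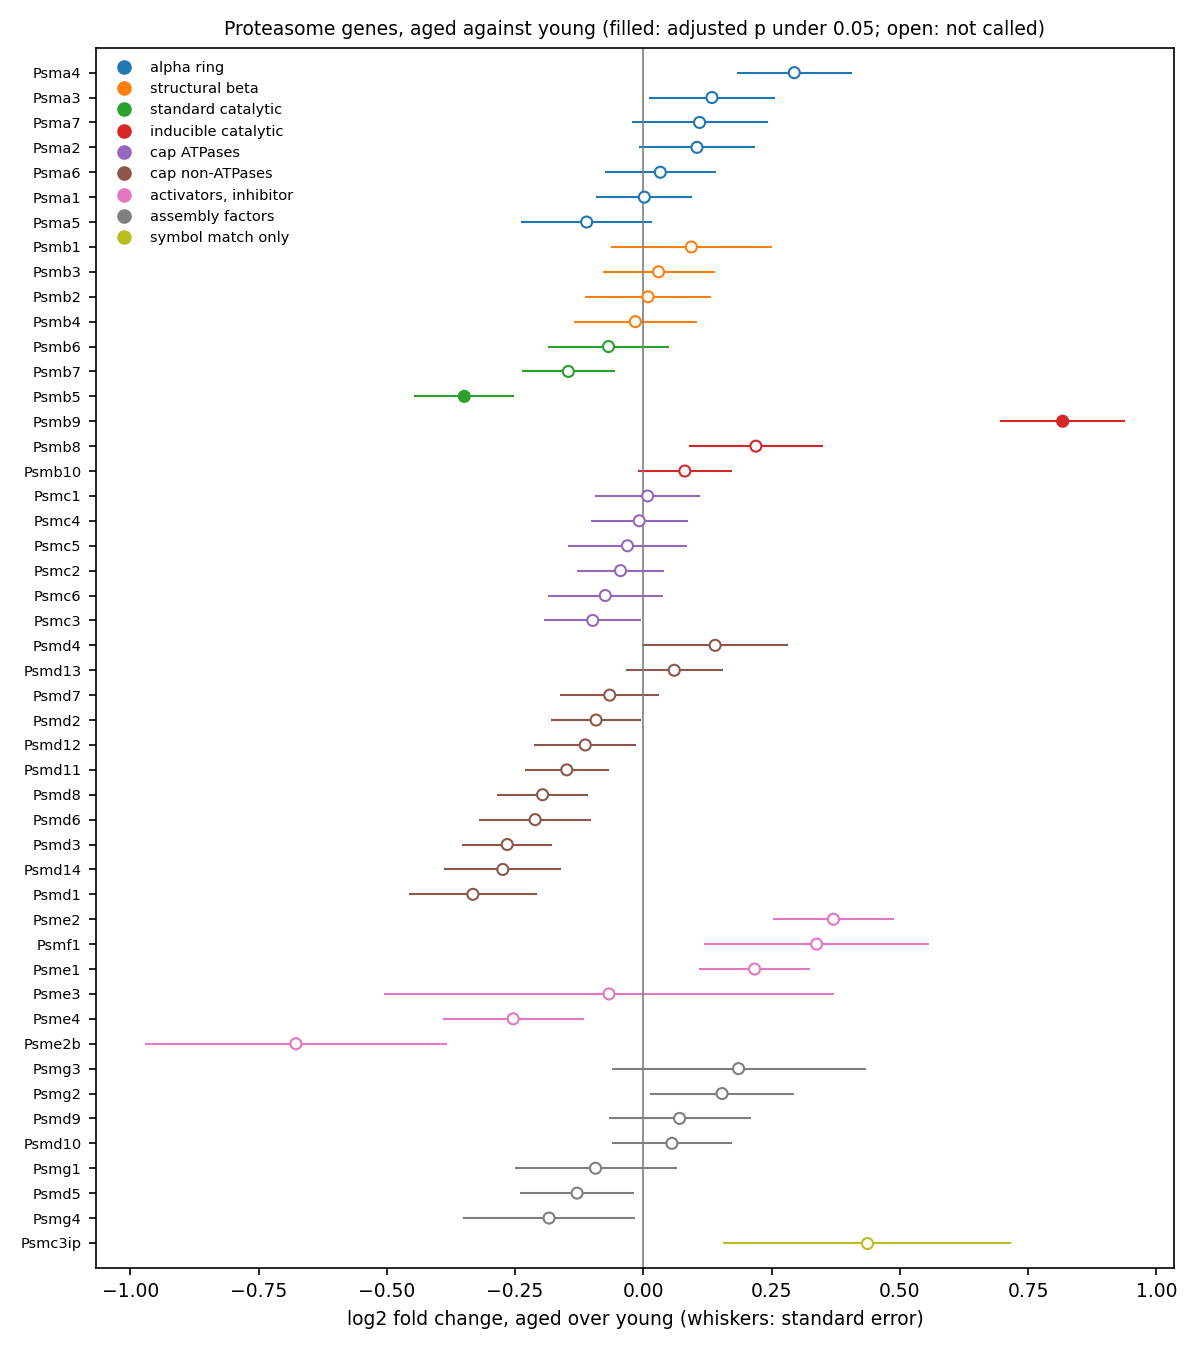
Log2 fold change of each tested proteasome gene in aged against young Tregs (x axis, 3 aged and 4 young libraries), with its standard error as whiskers and genes grouped by role on the y axis. Psmb9 at 0.82 and Psmb5 at -0.35 are the filled points, and most of the other genes lie within 0.25 of 0.

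The catalytic genes were examined next, as pairs of an inducible subunit and the standard subunit whose place it takes. Psmb9 (ENSMUSG00000096727, GRCm38 chr17:34181987-34187764, minus strand) is the inducible partner of Psmb6. It was at 179.7, 174.9 and 216 CPM in aged libraries 1 to 3 and at 102, 126, 98.8 and 105 CPM in young libraries 1 to 4. All aged libraries were above all young libraries. The aged mean was 190.3 ± 22.6 CPM and the young mean 108 ± 12.2 CPM (SD, n = 3 and n = 4). Psmb9 rose 1.76-fold, or by 0.82 as log2 (SE 0.12, edgeR adjusted p = 0.00405). Between 1170 and 2310 reads per library lay behind these values. The call held in each of the 7 fits that left out a library, with log2 fold changes between 0.72 and 0.90. It was lost only when replicate numbers were used as a block (adjusted p up to 0.0792), and these numbers did not pair the libraries.

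The RefSeq start site of Psmb9 lay 226 bases from that of Tap1, a subunit of the transporter that carries peptides to MHC class I, on the opposite strand. In the GENCODE models 5.79% of the exonic bases of Psmb9 overlapped Tap1 exons. Reads in the overlap could not be split by strand. Tap1 was at 326 ± 27.1 CPM in young and 521 ± 60.8 CPM in aged Tregs (SD, n = 4 and n = 3), and rose by a log2 value of 0.68 (SE 0.12, edgeR adjusted p = 0.00866). The within-library ratio of Psmb9 to Tap1 was 0.329 to 0.387 in aged and 0.323 to 0.344 in young Tregs, and these ranges overlapped.

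Psmb5 (ENSMUSG00000022193, GRCm38 chr14:54614119-54618022, minus strand) carries the chymotrypsin-like activity of the standard core. It was at 28.7, 31.7 and 29.3 CPM in aged libraries 1 to 3 and at 34.6, 38.5, 39.3 and 39.9 CPM in young libraries 1 to 4. The aged libraries were all below the young ones. Psmb5 fell by 0.35 on the log2 scale (SE 0.10, edgeR adjusted p = 0.0434). The young mean was 38.1 ± 2.38 CPM and the aged mean 29.9 ± 1.62 CPM (SD, n = 4 and n = 3), on 313 to 557 reads per library. This call was close to the threshold. It was lost in each of the 7 fits without a library, with adjusted p between 0.0581 and 0.125 and log2 fold changes between -0.39 and -0.32. In addition, 57.1% of the 50-base words of Psmb5 were shared with other annotated genes, including the pseudogene Psmb5-ps, and 12.1% of its exonic bases overlapped Mir686, so its count is uncertain.

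The remaining catalytic genes were not called. Psmb8, the inducible partner of Psmb5, was at 189, 196 and 225.5 CPM in aged and at 159, 209.7, 156 and 175 CPM in young Tregs. Young library 2 lay within the aged values, and the log2 fold change was 0.22 (SE 0.13, edgeR adjusted p = 0.28). Psmb10, the inducible partner of Psmb7, was at 102, 97.3 and 106 CPM in aged and at 92.6, 100.5, 87.7 and 103.5 CPM in young Tregs. Its groups overlapped, with a log2 fold change of 0.08 (SE 0.09, edgeR adjusted p = 0.585).

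Psmb6, the caspase-like subunit, was at 83.1, 84.6 and 90.9 CPM in aged and at 75.1, 105, 90.3 and 90.9 CPM in young Tregs, so the aged values lay inside the young range. Its log2 fold change was -0.07 (SE 0.12, edgeR adjusted p = 0.737). Psmb7, the trypsin-like subunit, was at 34.95, 33.4 and 36.5 CPM in aged and at 36.5, 39.2, 41 and 38.1 CPM in young Tregs. The aged libraries were all below the young ones, by a margin of less than 0.1 CPM between the nearest pair, and the log2 fold change was -0.15 (SE 0.09, edgeR adjusted p = 0.301). Thus the 3 inducible genes had positive differences and the 3 standard genes negative ones, with 1 call in each class. These signs were the same under every scaling tried, and Psmb6 alone turned positive, at 0.01, without young library 2.

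**Figure D2:**
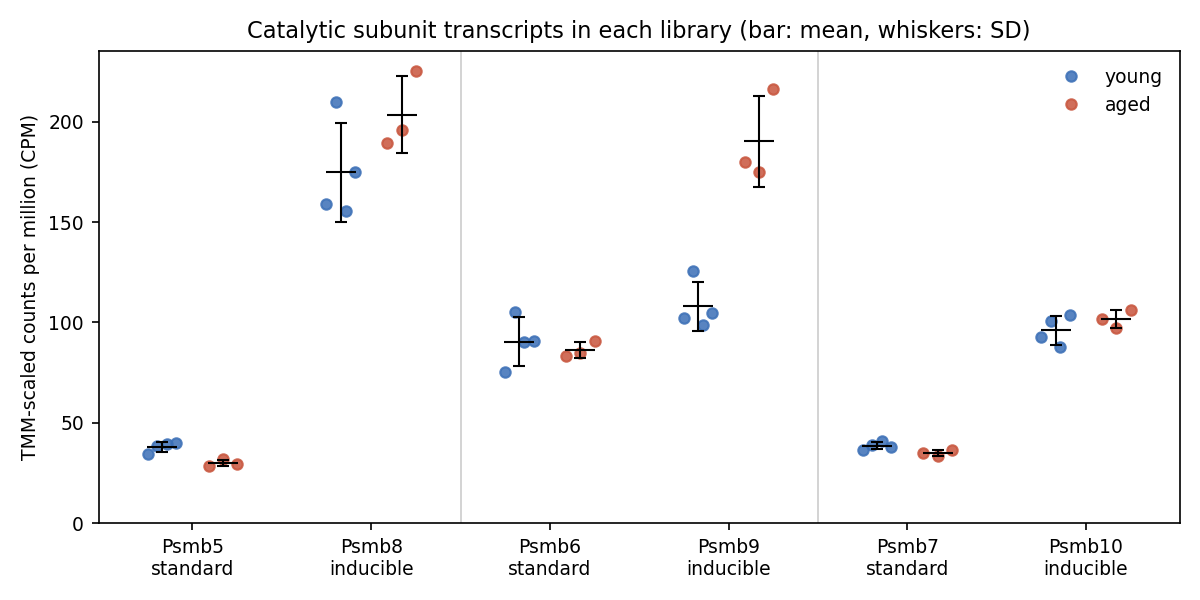
CPM of the 6 catalytic genes in every library (points), with the group mean as a bar and the SD as whiskers, each standard gene beside the inducible gene that replaces it. Psmb9 is separated between the ages (174.9 to 216 against 98.8 to 126 CPM), as is Psmb5 at a lower level (28.7 to 31.7 against 34.6 to 39.9 CPM).

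A ratio of counts within a library does not depend on how the library was scaled. The ratio of Psmb9 to Psmb6 was 2.16, 2.07 and 2.38 in aged and 1.36, 1.2, 1.09 and 1.16 in young libraries. Every aged library had a higher ratio than every young library, and the mean log2 ratio was 1.14 ± 0.10 (SD, n = 3) against 0.26 ± 0.13 (SD, n = 4), a 1.83-fold difference. The ratio of Psmb8 to Psmb5 was 6.61, 6.18 and 7.7 in aged and 4.6, 5.45, 3.97 and 4.38 in young libraries, again without overlap, with mean log2 ratios of 2.76 ± 0.16 (SD, n = 3) and 2.19 ± 0.19 (SD, n = 4) and a 1.49-fold difference. The ratio of Psmb10 to Psmb7 was 2.908, 2.91 and 2.905 in aged and 2.54, 2.57, 2.14 and 2.72 in young libraries. It differed least, 1.17-fold, yet also without overlap.

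By an exact two-sided permutation test each of the 3 ratios gave p = 0.0571, also after Benjamini-Hochberg adjustment over the 3. The test doubles the one-sided p, and in this form 0.0571 is the smallest p for 3 against 4 libraries. A value under 0.05 could thus not be reached. The differences in log2 ratio were 0.88 (SE 0.09) for Psmb9 to Psmb6, 0.57 (SE 0.14) for Psmb8 to Psmb5 and 0.23 (SE 0.09) for Psmb10 to Psmb7. Without any single library they stayed at 0.82 to 0.94, 0.48 to 0.66 and 0.16 to 0.27 respectively. The ratio with Psmb5 is uncertain because of its shared sequence, and other genes also overlapped exons of Psmb8 (14.7% of its exonic bases, with Gm20496) and Psmb7 (11.8%, with Nek6), whose reads cannot be split by strand.

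**Figure D3:**
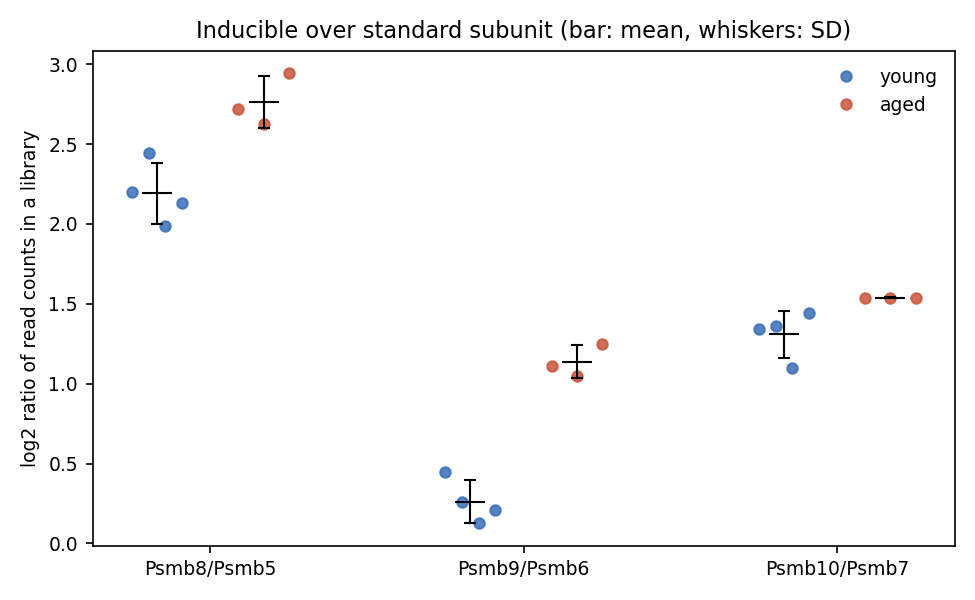
Log2 ratio of the reads of each inducible catalytic gene to those of its standard partner in every library (points), with group means as bars and SD as whiskers. The aged libraries lie above the young ones in all 3 pairs, with the widest gap for Psmb9 to Psmb6 (1.05 to 1.25 against 0.13 to 0.45).

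Levels of different genes were compared per kilobase of the principal transcript. On this scale the inducible subunits made up 66.3%, 65.6% and 68.1% of the summed level of the 6 catalytic genes in aged libraries 1 to 3 and 59.8%, 58.9%, 55.1% and 58% in young libraries 1 to 4. By these counts the inducible genes held the larger share of catalytic transcripts at both ages. That share includes Psmb5, whose count is uncertain because of its shared sequence. Within pairs, the inducible share was 56.5% ± 1.76 (SD, n = 3) in aged and 41.4% ± 2.27 (SD, n = 4) in young Tregs for Psmb9 with Psmb6. It was 78.9% ± 1.85 against 71.6% ± 2.67 for Psmb8 with Psmb5, and 72% ± 0.02 against 68.7% ± 2.24 for Psmb10 with Psmb7. The SD of 0.02 is smaller than the counting error of 332 to 400 Psmb7 reads per aged library. It is therefore no measure of the precision of that share. These shares move with the length that is used. With all exons of a gene in place of its principal transcript they were 52.9% against 38%, 64.4% against 54.8% and 85.4% against 83.2% in the same order.

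The ratios of the inducible genes to each other were looked at after their values had been seen. The ratio of Psmb9 to Psmb8 was 0.893 to 0.959 in aged and 0.5998 to 0.6425 in young libraries. The difference on the log2 scale was 0.59 (SE 0.04), with no overlap between the ages. The ratio of Psmb9 to Psmb10 differed by 0.73 (SE 0.09), with no overlap either. Over the ratios of Psmb9 to Psmb8, Psmb10 and Tap1, the exact permutation p was 0.0571, 0.0571 and 0.171 (two-sided), or 0.0857, 0.0857 and 0.171 after adjustment over the 3. In the order of levels per kilobase among the 50 genes, Psmb9 went from place 17 in young to place 5 in aged Tregs, from 79.9 to 140.7 CPM per kilobase of the principal transcript. Per kilobase of all exons it went from place 28 to place 15, so the places depend on the length that is used.

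Psme1 and Psme2, which encode the interferon-inducible activator ring on the core, had the highest levels of all members per kilobase of the principal transcript, in places 1 and 2 at both ages. Per kilobase of all exons Psme3 was above both in young Tregs, at 115.6 CPM against 115 for Psme1 and 105 for Psme2. Psme2 was at 217, 219.7 and 281 CPM in aged and at 176, 199, 184 and 183 CPM in young Tregs. All aged libraries were above the young ones, but the log2 fold change of 0.37 (SE 0.12) missed the threshold with an edgeR adjusted p of 0.0643, and Psme2 was called in 3 of 20 alternative fits. Psme1 was at 279, 279.7 and 327.5 CPM in aged and at 235, 277, 248.5 and 256 CPM in young Tregs. It also had no overlap, with a log2 fold change of 0.22 (SE 0.11, edgeR adjusted p = 0.203).

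Psme2b, a copy of Psme2 on chromosome 11, was far lower, at 16.4, 6.55 and 7.95 CPM in aged and 15.1, 18.2, 17.9 and 15.1 CPM in young Tregs. Aged library 1 lay within the young values and the other aged libraries below them. The log2 fold change was -0.68 (SE 0.29, edgeR adjusted p = 0.15). It was -1.19 without aged library 1 (edgeR adjusted p = 0.00469), the only library whose omission led to a call, and -0.44 without aged library 2 (edgeR adjusted p = 0.327). Psme2b shared 69.3% of its 50-base words with Psme2 or a pseudogene, and Psme2 shared 59.3%, so reads between the copies cannot be assigned with certainty. Psme4, which encodes another activator, had a log2 fold change of -0.25 (SE 0.14, edgeR adjusted p = 0.241).

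Counting groups without overlap, 8 of 48 members (16.7%) were separated between the ages, beside 29.9% of all genes tested. All aged libraries were above the young ones in 4 members (15.5% of all genes), namely Psmb9, Psme1, Psme2 and Psma4, and below them in 4 members (14.4% of all genes), namely Psmb5, Psmb7, Psmd3 and Psmd8. Psma4, Psmd3 and Psmd8, like the other genes named from here on outside the catalytic and activator pairs, were picked after their values were seen. Psma1, Psmc1 and Psmc4 were named by a rule on size, as the 3 members with the smallest differences.

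The core rings outside the catalytic sites were near level. The 7 alpha ring genes, which form the gate of the barrel, had log2 fold changes between -0.11 and 0.29 with a median of 0.10, and none was called. A positive difference was found in 6 of these 7 genes, beside 7230 of all 13904 genes tested, and in 4 to 6 of the 7 in the alternative fits. Psma4, with the largest difference among them, was at 127, 119.5 and 131 CPM in aged and 89.1, 119.1, 105 and 98.3 CPM in young Tregs. Young library 2 reached almost the lowest aged value, and the log2 fold change of 0.29 (SE 0.11) had an edgeR adjusted p of 0.107. The 4 structural beta genes, Psmb1 to Psmb4, lay between -0.02 and 0.09. Psma1 differed by less than 0.01 on the log2 scale, with a standard error of 0.09.

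In the cap, 14 of 17 genes had a negative difference, beside 6674 of all 13904 genes tested, and none of the 17 was called. The number of negative differences in the cap was between 12 and 16 under the other scalings, filters and left-out libraries. The 6 ATPases, Psmc1 to Psmc6, which unfold the substrate, had log2 fold changes from -0.10 to 0.01 with a median of -0.04. Psmc4 (-0.01, standard error 0.09) and Psmc1 (0.01, standard error 0.10) were among the 3 smallest differences of all members. Psmc2 was the steadiest member, with a highest library only 1.12-fold above the lowest.

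The 11 non-ATPases had a median log2 fold change of -0.15, from -0.33 to 0.14, with 3 (27.3%, beside 32.7% of all genes tested) at an unadjusted p under 0.05, namely Psmd1, Psmd3 and Psmd14. Psmd3, a structural subunit, was at 93.4, 81 and 86.4 CPM in aged and 105.9, 109.4, 99.8 and 103 CPM in young Tregs. The groups did not overlap, and the log2 fold change of -0.27 (SE 0.09) had an edgeR adjusted p of 0.0717. Psmd1, the large scaffold of the cap, was at 81.2, 61.5 and 58.3 CPM in aged and 82.5, 84.2, 89.8 and 81 CPM in young Tregs. Aged library 1 stood with the young libraries, and the log2 fold change was -0.33 (SE 0.12, edgeR adjusted p = 0.104). Psmd14, which removes ubiquitin chains from the substrate, had a log2 fold change of -0.27 (SE 0.11, edgeR adjusted p = 0.136). Psmd4, a ubiquitin receptor, was spread between 128 and 199.5 CPM in aged Tregs but only between 142 and 151 CPM in young ones.

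The 7 assembly factors, Psmg1 to Psmg4, Psmd5, Psmd9 and Psmd10, help to build the rings and caps and are not part of the finished complex. Their levels in young Tregs were among the lowest, at 5.78 to 21.4 CPM per kilobase, against 43.6 to 134 for the alpha ring. Their log2 fold changes ran from -0.18 to 0.19 with a median of 0.06, and none was called.

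The members were steady between replicates, with a median coefficient of variation of 9.37% in young and 9.33% in aged Tregs. The largest exception was Psme3, which encodes a nuclear activator. It was at 154, 557.5 and 265 CPM in aged libraries 1 to 3 and at 481, 183, 331 and 369 CPM in young libraries 1 to 4. The spread was 3.62-fold and was found in both ages, with a log2 fold change of -0.07 (SE 0.44, edgeR adjusted p = 0.935). This fold change depended on the fit, from -0.70 to 0.27 over 20 alternatives, and Psme3 was called in 0 of them. Psmf1, an inhibitor of the core, was at 54.2, 99.6 and 66.3 CPM in aged and 70.2, 45, 55.1 and 61.9 CPM in young Tregs.

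Haemoglobin transcripts took 1.27%, 13.1% and 7.6% of the gene counts in aged libraries 1 to 3 and 10.4%, 1.24%, 6.15% and 5.91% in young libraries 1 to 4. Aged library 2 and young library 1 had the highest haemoglobin share and the highest Psme3 and Psmf1, and aged library 1 and young library 2 had the lowest of all 3. This is a description of 7 libraries that was seen in the data, and the part of erythroid RNA in these levels was not tested. Psmb9 was at 179.7 CPM in aged and 126 CPM in young Tregs in the pair of libraries with the lowest haemoglobin share, and at 174.9 and 102 CPM in the pair with the highest.

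**Figure D4:**
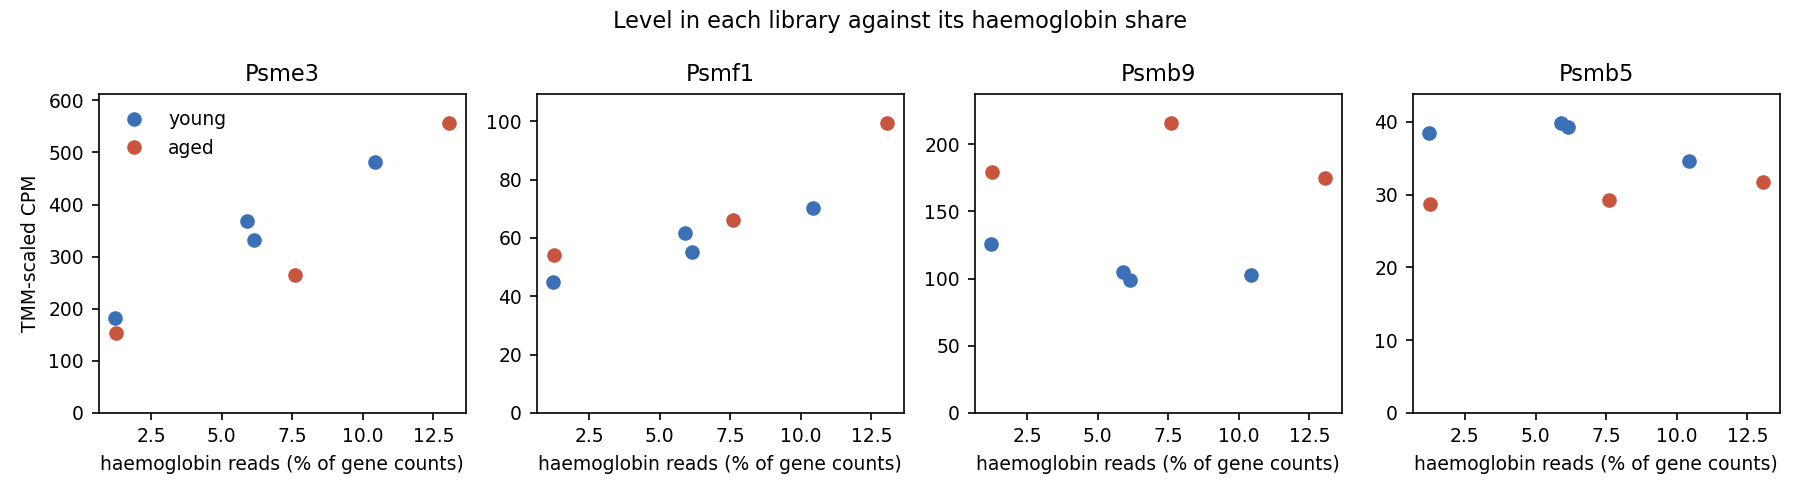
CPM of Psme3, Psmf1, Psmb9 and Psmb5 in each library (y axis) against the share of gene counts that were haemoglobin transcripts in percent (x axis), for 4 young and 3 aged libraries. Psme3 and Psmf1 are lowest in the 2 libraries near 1.2% and highest in the 2 libraries above 10%, while Psmb9 and Psmb5 are separated by age along the whole axis.

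Other shifts ran through many members at once. Among young libraries, library 2 had the highest level of 30 of 48 members and library 1 the lowest of 32. Among aged libraries, library 3 had the highest level of 22. The summed level of all members was between 4520 and 4973 CPM, and the ages overlapped. Leaving mitochondrial, immunoglobulin and haemoglobin genes out before scaling kept both calls, and so did thinning every library to the smallest total.

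Genes that work with the proteasome were also counted. Of 22 partner genes, which include the assembly factor Pomp, the transcription factor Nfe2l1 that induces proteasome genes and the shuttle proteins, 0 were called higher and 1 lower, with a median log2 fold change of 0.01. This is 4.55% called, beside 16.7% of all genes tested, and 5 (22.7%) had an unadjusted p under 0.05, beside 32.7%. The gene called lower was Ubqln4, a shuttle protein, with a log2 fold change of -0.36 (SE 0.09, edgeR adjusted p = 0.0321). This call was lost in most fits that left out a library. Of 6 genes that supply or activate ubiquitin, 1 was called higher and 0 lower, with a median log2 fold change of 0.13. This is 16.7% called, the same share as the 16.7% of all genes tested. At an unadjusted edgeR p under 0.05 there were 2 (33.3%), beside 32.7%.

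Of 13 genes of class I antigen processing and interferon signalling, 4 were called higher and 1 lower (38.5% called, beside 16.7% of all genes tested), with a median log2 fold change of 0.43. At an unadjusted p under 0.05 there were 11 (84.6%), beside 32.7% of all genes. Among those higher were Tap1 and the transcriptional regulators Nlrc5 (log2 fold change 0.80) and Irf1 (0.79), and the gene called lower was Ifngr2, a chain of the interferon-gamma receptor (-0.83). The edgeR adjusted p was 0.0103 for Nlrc5, 0.00624 for Irf1 and 0.00117 for Ifngr2.

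The start regions of the members were searched for 4 short motifs, in RefSeq windows (GRCm38.p6) from 250 bases before to 50 bases after the start of each gene and on both strands. A window was found for 42 of the 50 members. Shown is 1 match each in Psmb9, Psmb8, Psme1, Psmb5 and Psmb6, picked from the genes whose values are given above. Sequences run 5' to 3' on the strand of the gene, with that match in capitals. Other matches in these genes, GC boxes in Psme1 and Psmb6, are not shown.

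Psmb9, GC box, chr17:34187368-34187397, minus strand: tgcgcgatgatgGGGCGGggcctcagtctg

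Psmb8, gamma-activated sequence, chr17:34198088-34198117, plus strand: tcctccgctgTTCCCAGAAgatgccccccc

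Psme1, interferon-stimulated response element core, chr14:55578493-55578522, plus strand: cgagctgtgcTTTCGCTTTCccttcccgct

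Psmb5, antioxidant response element core, chr14:54618023-54618052, minus strand: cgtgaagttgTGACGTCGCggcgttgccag

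Psmb6, antioxidant response element core, chr11:70525338-70525367, plus strand: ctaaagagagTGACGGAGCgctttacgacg

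The matches began 55, 97, 47 and 9 bases before the RefSeq start in Psmb9, Psmb8, Psmb5 and Psmb6. In Psmb9 and Psmb8 all window bases before that start were untranslated or coding bases of GENCODE models. In Psme1 the match began at base 10 of the transcribed strand, with the start base itself counted. The GC box, GGGCGG, was in 23 of 42 windows (54.8%) and in 35.7% of all 32851 windows. Those 32851 windows were not limited to the genes tested here, and for members only the first listed window was used. The shares below are thus from unlike sets. The interferon-stimulated response element core, GAAA-NN-GAAA, was in 5 windows (11.9%) beside 3.44% of all, namely Psmb3, Psmd4, Psmd9, Psme1 and Psmg4. Of these genes none was called. The gamma-activated sequence, TTCNNNGAA, was in 3 windows (7.14%) beside 8.3% of all, and the antioxidant response element core, TGACNNNGC, in 6 (14.3%) beside 12.4%. Psmb9 and Psme2 held matches to the GC box only, and Psmb10 held no match to any of the motifs. A match is a run of letters and not a measured binding site, and a window without one shows only that those letters were not in it.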

How the data were processed

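Libraries were made with the SMART-Seq v4 kit, which adds no molecular identifiers. Per the labels and file layout, the authors deposited whole-number read counts per gene for each library (mm10, union mode without strand; aligner and annotation are not given in the sources used here), and a table with a deposited signal per gene, which was within 0.01% of count over a size factor in 100% of genes with a count. The counts were used. Between 13.1% and 20.9% of reads lay on no gene or on several and were left out. Columns holding the authors' fold changes and p-values were not used. Genes were filtered with filterByExpr and fitted with edgeR 4.0.16 (TMM, quasi-likelihood) in R 4.3.3, with groups from the labels. The study names limma, so limma 3.58.1 and DESeq2 1.42.0 were alternatives, with other scalings, filters, GC content and length, depth and left-out libraries. The fit was also run on simulated data, and no result of that run is reported or relied on here. Ratios used log2 of counts plus 0.5 and exact permutation in scipy 1.17.1. Lengths and overlaps came from GENCODE M21 (GRCm38). The members, lists and rules were chosen with earlier results of these data known. Named genes were the catalytic and activator pairs, Psma8, Psmb11, called members, and the 3 largest and 3 smallest uncalled differences, with called genes of the lists, some of which are not reported here. The labels give 8 weeks for young mice, and the study's methods an older age.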

Additional observations from a re-analysis of the deposited data

Results flagged for a closer look

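In 2 of the 51 sets of 4 young values that were checked, 1 library stood apart from the rest by Dixon's criterion, and about 1 in 20 sets would do so by chance. Psma6, an alpha ring subunit, was at 127 CPM in young library 2, while the others were at 105 to 107 CPM. Psmg3, an assembly factor, was at 3.94 CPM in young library 4, while the others were at 5.33 to 5.61 CPM. The 3 aged libraries are too few for the same check.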

How the results depend on the processing

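No called result changed direction in any alternative, and the 3 ratios stayed within 1 SD of their value in all 12 of theirs. Over all genes 2327 were called, against 3804 with DESeq2, 292 with the replicate block, 247 with the block and the GC and length trend removed, 1491 among genes with no exon overlap and 1237 to 3058 without a library. Members called higher numbered 3 with DESeq2 (Psma4, Psmb9, Psme2), 2 with DESeq2 on all genes with a count, 0 with the replicate block, with or without the trend, 0 among genes with no exon overlap, and 1 to 2 without a library. Members called lower numbered 5 with DESeq2 (Psmb5, Psmd1, Psmd14, Psmd3, Psme2b), 2 with the trend removed, 0 with library size only, no filter, at least 10 counts in every library, the replicate block with or without the trend, or no exon overlap, and 0 to 3 without a library. Psmb5 was lost without each library, while without aged replicate 1 Psme2 rose and Psmd1, Psmd3 and Psme2b fell, and without young replicate 2 Psma4 rose. Partner genes called numbered 3 with DESeq2, 2 with DESeq2 on all genes, 2 with the trend removed, 0 with no filter or either block, and 0 to 2 without a library. Ubiquitin genes called numbered 2 with DESeq2 in both forms, limma voom and limma-trend, 0 with no filter, either block or no exon overlap, and 0 to 1 without a library. Class I genes called numbered 10 with DESeq2, 9 with DESeq2 on all genes, 2 with either block, 1 with no exon overlap and 5 to 9 without a library. The median log2 fold change of all genes was 0.0604 with DESeq2 on all genes, 0.0618 with no filter, -0.0521 with library size only and between -0.00225 and 0.0208 without a library. The cause of these shifts was not tested, except that genes with exon overlap, Psmb9 and Psmb5 among them, are left out by construction. DESeq2 on all genes, the block with the trend and the exon length were chosen after seeing the data. Replicate numbers did not pair the libraries, since same-numbered libraries correlated at -0.091, -0.292 and -0.138.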
